A study of Mus musculus with 19 samples.

Results

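Skeletal muscle genes were read here as 9 genes: Myog, Myod1, Myf5, Acta1, Actc1, Myh3, Tnni1, Chrna1 and Ckm. They were chosen by name, as every probe set whose only symbol in the probe annotation was a member, which took 11 of 45037 probe sets and 9 of 18193 named genes. Of the 11 probe sets 10 passed the filter on low values, and all 9 genes kept a tested probe set. The 9 genes were highest in every sample of dermis, lower in the other 3 tissues, and most differed far less between the compartments of the urogenital sinus than between those of the skin.

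RNA of 4 tissues from C57BL/6 mouse embryos of day 16 was hybridised to 19 Affymetrix expression arrays. These were 6 samples of urogenital sinus epithelium (UGE), the tissue from which the prostate buds, 5 of the mesenchyme around it (UGM), 4 of epidermis and 4 of dermis, both from back skin, with no mutation or treatment in any group. Each sample was a pool of embryos, and skin and urogenital sinus came from the same embryos, so that samples of different tissues can share embryos. Trypsin freed the urogenital epithelium from its mesenchyme, whereas the skin layers were pulled apart by hand after a cold night in dispase, so that site and way of separation cannot be told apart. Values are given as log2 of the deposited intensity, with the SD over samples for a level and the standard error (SE) for a difference. Array medians ran from 6.25 to 6.35, lower quartiles from 4.7 to 4.92, and arrays of the same tissue correlated at r of 0.954 to 0.997. In bulk RNA, fewer cells of a type and less RNA per cell cannot be told apart.

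Skeletal muscle of the trunk and limbs arises from somite progenitors that delaminate, migrate, divide as myoblasts and fuse into multinucleated fibres. Transcription factors of the MyoD family, which bind E boxes together with E proteins, commit cells to this fate and switch on contractile and synaptic genes. Back skin overlies the panniculus carnosus, a thin sheet of striated muscle, while the wall of the urogenital sinus carries smooth muscle and, around the urethra, a striated sphincter.

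The promoters of 4 members are shown as examples, with the regulator Myog and the receptor gene Chrna1 set beside the sarcomeric actin genes. RefSeq's table on GRCm38.p6 listed a promoter for 8 of the 9 members, and the 250 bases before the start of transcription are printed 5′ to 3′ on the gene's strand. Capitals mark E boxes (CANNTG, which reads the same on both strands) and, in both actin promoters, the CArG box, the element bound by serum response factor, searched on both strands. The E box and CArG box matches printed here do not overlap.
Myog promoter, chr1:134289754-134290003, plus strand: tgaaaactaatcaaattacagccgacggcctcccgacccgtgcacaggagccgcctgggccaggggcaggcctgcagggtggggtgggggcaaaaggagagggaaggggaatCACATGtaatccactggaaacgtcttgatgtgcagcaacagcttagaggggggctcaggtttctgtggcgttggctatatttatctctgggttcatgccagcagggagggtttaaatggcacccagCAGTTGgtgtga
Chrna1 promoter, chr2:73580339-73580588, minus strand: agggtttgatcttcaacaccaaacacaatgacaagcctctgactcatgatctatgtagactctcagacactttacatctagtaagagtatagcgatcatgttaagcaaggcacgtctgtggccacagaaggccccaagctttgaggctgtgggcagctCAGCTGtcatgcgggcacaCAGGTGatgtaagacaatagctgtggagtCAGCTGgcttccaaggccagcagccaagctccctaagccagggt
Acta1 promoter, chr8:123894776-123895025, minus strand: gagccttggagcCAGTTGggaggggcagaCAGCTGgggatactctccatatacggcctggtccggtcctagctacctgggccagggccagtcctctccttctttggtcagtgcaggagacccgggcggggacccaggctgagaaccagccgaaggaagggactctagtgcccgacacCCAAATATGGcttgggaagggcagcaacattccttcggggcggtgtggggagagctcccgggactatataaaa
Actc1 promoter, chr2:114052876-114053125, minus strand: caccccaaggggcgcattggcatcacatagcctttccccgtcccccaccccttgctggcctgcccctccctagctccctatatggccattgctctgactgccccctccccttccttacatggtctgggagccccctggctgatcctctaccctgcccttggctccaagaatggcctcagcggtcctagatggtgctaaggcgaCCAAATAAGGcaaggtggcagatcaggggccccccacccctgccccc
An E box lay 12 to 7 bases before the start of Myog and a further one 138 to 133 bases before it, while the Chrna1 promoter held 3, between 92 and 39 bases before the start. At least 1 E box was found for Myog, Acta1, Myh3, Tnni1, Chrna1 and Ckm, 6 of the 8 members listed, and 66.2% of all 32851 mouse promoters of this length held one. Promoters with 3 or more E boxes made up 12.2%. The CArG box was found only in Acta1 and Actc1 among the 8 members listed, against 1.47% of all promoters. A MEF2 motif (CTAWWWWTAR, with W for A or T and R for A or G) was searched too. It was found in none of the 8 members, against 1.69% of all promoters. These matches are descriptions of the letters in the window, not sites known to be bound in these tissues.

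**Figure D1:**
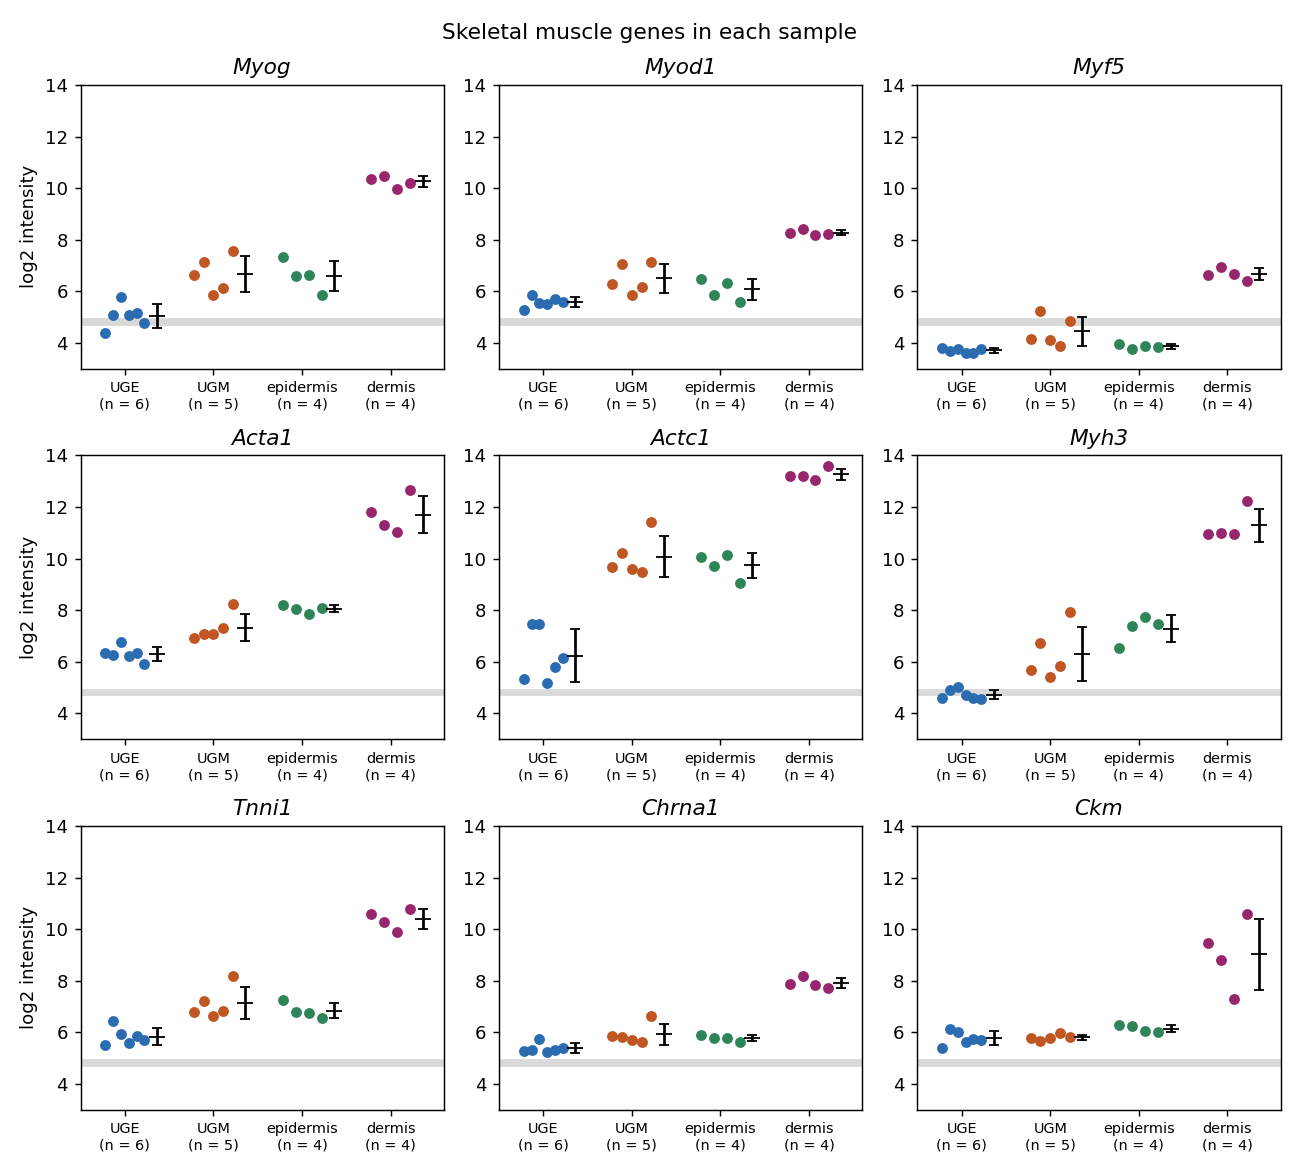
Log2 intensity of each gene (y axis) in every UGE, UGM, epidermis and dermis sample (x axis), points in order of replicate number, bars the mean ± SD, and the grey band the range of the arrays' lower quartiles, 4.7 to 4.92. All 4 dermis points lie above every other point in each of the 9 panels, and Ckm shows the widest spread within dermis.

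Myf5, Myod1 and Myog are the 3 members that regulate transcription. Myf5 marks early commitment of muscle progenitors, Myod1 acts with it in myoblasts, and Myog is needed for differentiation into fibres. Myf5 in dermis lay at 6.65, 6.93, 6.68 and 6.39, a mean of 6.67 ± 0.22 (SD, n = 4). In UGM it lay at 4.15, 5.24, 4.11, 3.89 and 4.87, in epidermis at 3.98, 3.76, 3.90 and 3.86, and in UGE between 3.6 and 3.79 with a median of 3.74. Dermis was clear of the other tissues, while UGE, epidermis and 3 of the 5 UGM samples lay under the lower quartile of every array, where these data do not show whether any signal is Myf5 RNA.

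Myod1 in dermis lay at 8.25, 8.44, 8.20 and 8.22, a mean of 8.28 ± 0.11 (SD, n = 4), the narrowest spread of any member there. In UGM it lay at 6.30, 7.06, 5.88, 6.17 and 7.12, in epidermis at 6.48, 5.88, 6.33 and 5.60, and in UGE between 5.26 and 5.86 with a median of 5.57. The UGM samples stood above all UGE samples by a small gap, and epidermis overlapped both. A further Myod1 probe set lay between 3.21 and 3.73 in all 19 samples and was not tested.

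Myog in dermis lay at 10.37, 10.49, 9.97 and 10.22, a mean of 10.26 ± 0.22 (SD, n = 4). In UGM it lay at 6.63, 7.15, 5.87, 6.14 and 7.58, and in epidermis at 7.32, 6.58, 6.63 and 5.87. In UGE it ran from 4.39 to 5.78 with a median of 5.09. UGM and epidermis overlapped almost fully and lay between UGE and dermis.

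Acta1 encodes the actin of adult skeletal muscle and Actc1 the cardiac actin, which embryonic skeletal muscle also uses. Acta1 in dermis lay at 11.82, 11.32, 11.04 and 12.65, a mean of 11.71 ± 0.71 (SD, n = 4). Epidermis gave 8.20, 8.05, 7.87 and 8.08, UGM 6.91, 7.09, 7.08, 7.30 and 8.26, and UGE lay between 5.91 and 6.78 with a median of 6.31. Epidermis stood above 4 of the 5 UGM samples and below UGM replicate 5.

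Actc1 in dermis lay at 13.21, 13.21, 13.04 and 13.58, a mean of 13.26 ± 0.23 (SD, n = 4). UGM samples gave 9.67, 10.23, 9.60, 9.47 and 11.41, and epidermis samples 10.05, 9.72, 10.13 and 9.07. In UGE it ran from 5.17 to 7.48 with a median of 5.99, and replicates 2 and 3, at 7.47 and 7.48, stood apart from the other 4. UGM and epidermis overlapped, and UGE lay clear below both, which made Actc1 the member with the most distinct gap inside the urogenital sinus.

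Myh3 encodes the embryonic myosin heavy chain and Tnni1 the slow troponin I that blocks actin and myosin binding at rest. Myh3 in dermis lay at 10.97, 11, 10.96 and 12.24, with a mean of 11.29 ± 0.63 (SD, n = 4) that replicate 4 raised. In epidermis it lay at 6.55, 7.40, 7.73 and 7.48, in UGM at 5.67, 6.73, 5.40, 5.83 and 7.94, and in UGE between 4.58 and 5.03 with a median of 4.65. UGE lay at the lower quartile of the arrays, and 1 UGM sample reached above the highest epidermis sample.

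Tnni1 in dermis lay at 10.60, 10.27, 9.90 and 10.79, a mean of 10.39 ± 0.39 (SD, n = 4). The UGM values were 6.80, 7.23, 6.64, 6.81 and 8.19, those of epidermis 7.24, 6.80, 6.77 and 6.57, and those of UGE lay between 5.51 and 6.43 with a median of 5.79. UGM and epidermis overlapped, and both lay above all UGE samples.

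Chrna1 encodes the alpha subunit of the muscle acetylcholine receptor, which binds the transmitter at the neuromuscular synapse. Chrna1 in dermis lay at 7.86, 8.18, 7.84 and 7.73, a mean of 7.90 ± 0.19 (SD, n = 4). The UGM values were 5.86, 5.81, 5.71, 5.62 and 6.64, those of epidermis 5.91, 5.76, 5.78 and 5.64, and those of UGE lay between 5.25 and 5.75 with a median of 5.33. The 3 lower tissues overlapped with one another, apart from UGM replicate 5, which stood above all of their other samples.

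Ckm encodes muscle creatine kinase, which regenerates ATP from phosphocreatine and appears late in differentiation. Ckm in dermis lay at 9.46, 8.79, 7.29 and 10.57, a mean of 9.03 ± 1.37 (SD, n = 4), the widest spread of any member. In UGM it lay at 5.78, 5.66, 5.79, 5.97 and 5.83, in epidermis at 6.28, 6.24, 6.04 and 6.03, and in UGE between 5.41 and 6.15 with a median of 5.72. All UGM values of Ckm lay within the range of UGE, and Ckm was the 1 member whose UGM and epidermis samples did not overlap, with epidermis above. A further Ckm probe set lay between 5.75 and 6.32 in all 19 samples, with an epidermis to dermis difference of -0.01 ± 0.10 (SE) and an adjusted p of 0.97 by limma, so that the 2 probe sets for Ckm disagree.

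The order of the tissues was therefore dermis at the top for all 9 genes. Each dermis sample exceeded all 15 samples of the other tissues for 9 of 9 members, as it did for 6.09% of the 17360 genes tested. UGM and epidermis overlapped for 8 of the 9, and their difference was not tested. The share of all genes that overlap between UGM and epidermis was not counted, so this overlap is not shown to be particular to muscle genes.

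Epidermis was compared with dermis to ask how the compartments of the skin differ, with limma on the skin samples alone and Benjamini-Hochberg adjustment over all probe sets. A gene was called at an adjusted p under 0.01 and over 2-fold. All 9 members were called lower in epidermis, with 11.1% of all genes called lower there and 5.84% called higher. The median difference of the members was -3.52 log2 units, against 0.01 for all genes.

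Among the regulators, Myog differed by -3.66 ± 0.26 (SE), or 12.6-fold, at an adjusted p of 8.99e-06 by limma. Myf5 differed by -2.79 ± 0.13 (limma adjusted p = 2.66e-06) and Myod1 by -2.21 ± 0.18 (limma adjusted p = 1.88e-05). The contractile genes lay close together, with Acta1 at -3.66 ± 0.29, Actc1 at -3.52 ± 0.23, Tnni1 at -3.54 ± 0.21 and Myh3 at -4.0 ± 0.33, a 16-fold difference and the largest of the 9 here. Chrna1 differed by -2.13 ± 0.12, the smallest of the 9, and Ckm by -2.88 ± 0.55 with a limma adjusted p of 0.00242. Each of these calls held with any single sample left out, and Ckm was not called by the methods' t-test (adjusted p = 0.026), by limma's treat against 2-fold (0.0596) or with 50 added before log2 (0.0129).

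UGE was compared with UGM to ask the same of the urogenital sinus. Of the 9 members 5 were called lower in UGE, with 10.0% of all genes called lower there and 6.75% called higher. Actc1 led with -3.83 ± 0.49 (SE), or 14.3-fold (limma adjusted p = 5.44e-05). Myog followed with -1.62 ± 0.31 (limma adjusted p = 0.0013), then Myh3 with -1.58 ± 0.38 (0.00561), Tnni1 with -1.30 ± 0.26 (0.00196) and Acta1 with -1.01 ± 0.23 (0.00371), just past 2-fold. Myod1 stood at -0.92 ± 0.22 with an adjusted p of 0.00531 by limma and missed the fold limit. Myf5 at -0.74 ± 0.21 and Chrna1 at -0.54 ± 0.17 were not called, with limma adjusted p of 0.0161 and 0.0273. Ckm gave -0.03 ± 0.13, and its groups overlapped fully. The median over the members was -1.01, against 0.02 for all genes. The count of 5 ran from 3 to 6 with any single sample left out and fell to 2, Actc1 and Myog, without UGM replicates 2 and 5, where Acta1 gave -0.78, Tnni1 -0.92 (limma adjusted p = 0.00403) and Myh3 -0.90. The Acta1 call was lost without UGM replicate 5 (-0.78) and without UGE replicate 4 (-1.0, limma adjusted p = 0.00914) or 6 (-0.93). The Myh3 call was lost without UGM replicate 2 (-1.47) and without UGE replicate 1, 4, 5 or 6 (-1.57 to -1.55), at limma adjusted p of 0.0124 to 0.0174, and Myod1 was called without UGM replicate 3 (-1.08) or 4 (-1.01).

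Across sites, UGM was compared with dermis and UGE with epidermis in a fit of all 19 samples, where the difference of site comes with the difference in separation. The dermis samples serve here again, so the counts for UGM against dermis and for epidermis against dermis share them. All 9 members were called lower in UGM than in dermis, with 7.00% of all genes called lower and 6.77% higher. Myh3 differed most at -4.98 ± 0.40 (SE), or 31.6-fold (limma adjusted p = 1.22e-08), followed by Acta1 at -4.38 ± 0.28, or 20.8-fold. Myod1 differed least at -1.77 ± 0.23 (limma adjusted p = 5e-06).

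UGE was below epidermis for 5 called members, Actc1, Myh3, Acta1, Myog and Tnni1, with 6.12% of all genes called lower in UGE and 8.28% called higher. Actc1 differed by -3.50 ± 0.45 (SE), Myh3 by -2.56 ± 0.39 and Acta1 by -1.74 ± 0.27. Myog differed by -1.55 ± 0.32 (limma adjusted p = 0.000677). Tnni1, at -1.01 ± 0.26, sat at the fold limit and lost its call without UGE replicate 1, 4 or 6 or without epidermis replicate 1, 2 or 3. It was also not called by the methods' t-test (adjusted p = 0.0109), by treat or with 50 added before log2, where it gave -0.62. Myf5 at -0.16 ± 0.19, Myod1 at -0.49 ± 0.22, Chrna1 at -0.39 ± 0.16 and Ckm at -0.38 ± 0.38 were not called, with limma adjusted p between 0.0675 and 0.546.

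**Figure D2:**
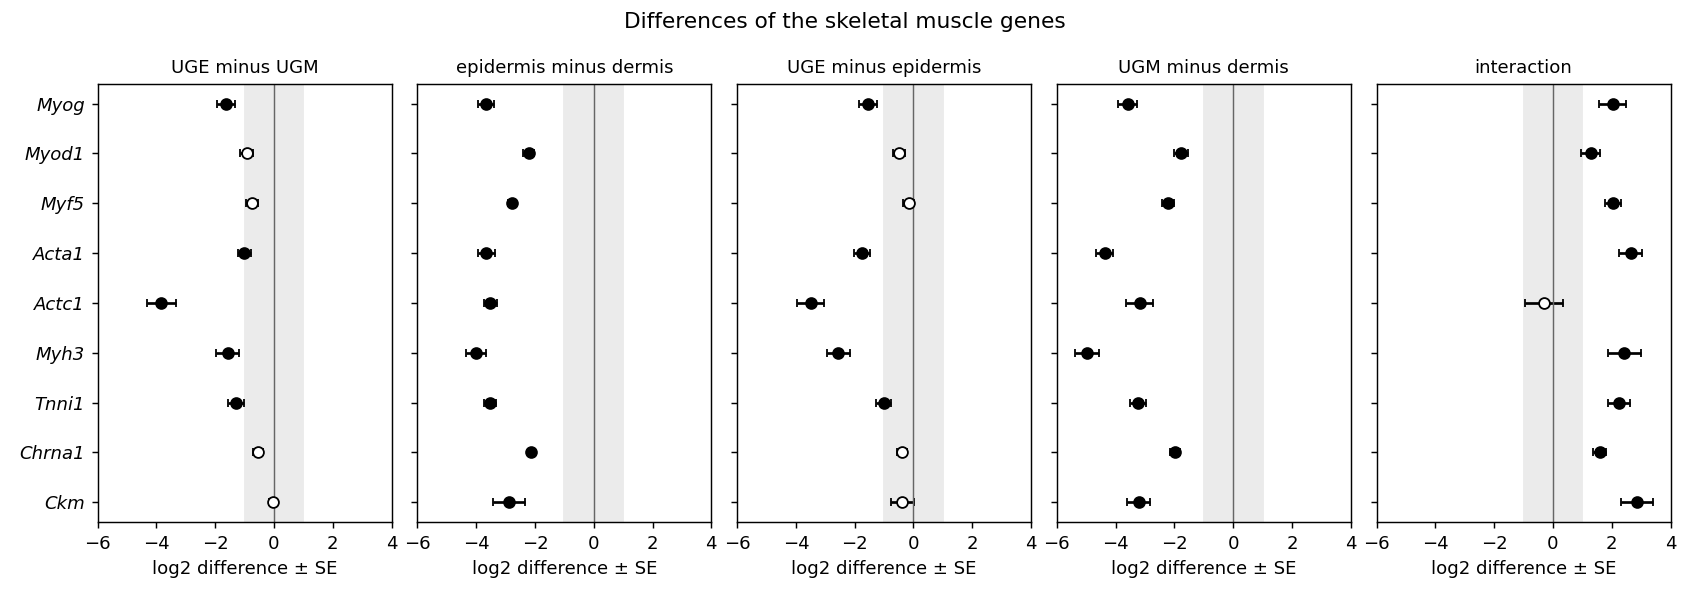
Difference in log2 intensity (x axis, bars the SE) of each gene (rows) for the 4 pairs of tissues and for the interaction; filled points were called and the grey band lies within 2-fold. Actc1 is the gene with like differences at both sites, -3.83 and -3.52, and the 1 gene whose interaction is not called.

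The interaction, the difference between UGE and UGM minus that between epidermis and dermis, asks whether the compartments differed by unequal amounts at the 2 sites. It was positive and called for 8 of 9 members, which means a smaller gap in the urogenital sinus than in the skin, with 7.53% of all genes called positive and 5.41% negative. Ckm gave 2.85 ± 0.54 (SE, limma adjusted p = 0.000712), Acta1 2.64 ± 0.39, Myh3 2.43 ± 0.56, Tnni1 2.24 ± 0.38, Myf5 2.05 ± 0.28, Myog 2.04 ± 0.45, Chrna1 1.59 ± 0.23 and Myod1 1.28 ± 0.32 (limma adjusted p = 0.00611). Actc1 gave -0.32 ± 0.64 (limma adjusted p = 0.822), so its gaps of 14.3-fold and 11.5-fold could not be told apart within this error. By limma's treat against 2-fold none of the 9 was called, with 7 at an unadjusted p under 0.05, and the methods' t-test did not call Myh3 (adjusted p = 0.0105) or Myod1 (0.0137). Without dermis replicate 4 Myh3 gave 2.11 and was not called (limma adjusted p = 0.0104). The Myod1 call was lost without any 1 of 11 of the 19 samples, with values from 1.13 to 1.31 and adjusted p of 0.0102 to 0.0176 in limma.

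The programme around the 9 members was read from 8 lists of other muscle genes, of which 94 were tested. Of these 94, 42 were called lower and 1 higher in epidermis than in dermis, 17 lower and 5 higher in UGE than in UGM, 39 lower and 6 higher in UGM than in dermis, and 14 lower and 3 higher in UGE than in epidermis. In that order the genes called lower are 44.7%, 18.1%, 41.5% and 14.9% of the 94, against 11.1%, 10.0%, 7.00% and 6.12% of all genes. The 5, 6 and 3 called higher are 5.32%, 6.38% and 3.19% of the 94, each under the share of all genes called higher in that comparison (6.75%, 6.77% and 8.28%). The median differences of the 94 were -0.90, -0.05, -0.77 and -0.21 in that order. Dermis samples exceeded all 15 others for 41 of the 94.

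The share of genes called lower in epidermis was largest in the lists of fusion and of the sarcomere, where 11.1% of all genes were called lower. In the list of myoblast adhesion and fusion 7 of 8 genes were called lower in epidermis, with Mymx, a small membrane protein needed for fusion, at -3.67 ± 0.16 (SE), Itgb1bp2 at -2.48 ± 0.28 and Ncam1, a neural and muscle adhesion molecule, at -2.35 ± 0.15. In thin filament and troponin 8 of 12 were called lower, led by Tnnt1 (slow troponin T) at -3.74 ± 0.27, Tnnc2 at -3.43 ± 0.31 and Tnnc1 at -3.37 ± 0.27. Nebl, an actin-binding relative of nebulin, went against its list at 2.59 ± 0.42. In thick filament and light chains 6 of 13 were called lower, with the embryonic light chain Myl4 at -3.78 ± 0.22, the perinatal heavy chain Myh8 at -3.53 ± 0.36 and Myl1 at -3.19 ± 0.21. In Z disc and titin 9 of 15 were called lower, with alpha-actinin 2, Actn2, at -3.41 ± 0.30, titin, Ttn, at -3.34 ± 0.40 and myotilin, Myot, at -2.18 ± 0.34.

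In excitation and calcium release 6 of 14 genes were called lower in epidermis, with sarcolipin, Sln, at -2.18 ± 0.25, Srl at -1.89 ± 0.18 and the calcium pump Atp2a1 at -1.87 ± 0.23 (SE). In the neuromuscular synapse list 2 of 10 were called, the receptor-clustering protein Rapsn at -1.35 ± 0.18 and the receptor subunit Chrnb1 at -1.18 ± 0.16. In muscle energy metabolism 2 of 12 were called, Eno3 at -2.03 ± 0.24 and Pgam2 at -1.02 ± 0.25, both glycolytic enzymes. Among the other myogenic regulators 2 of 10 were called, Mef2c, a partner of the MyoD family, at -3.18 ± 0.23 and Msc at -2.14 ± 0.21. The synapse, energy and regulator lists thus had 20%, 16.7% and 20% called lower, against 11.1% of all genes. With 2 genes called in each, these lists are not shown to differ from all genes.

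**Figure D3:**
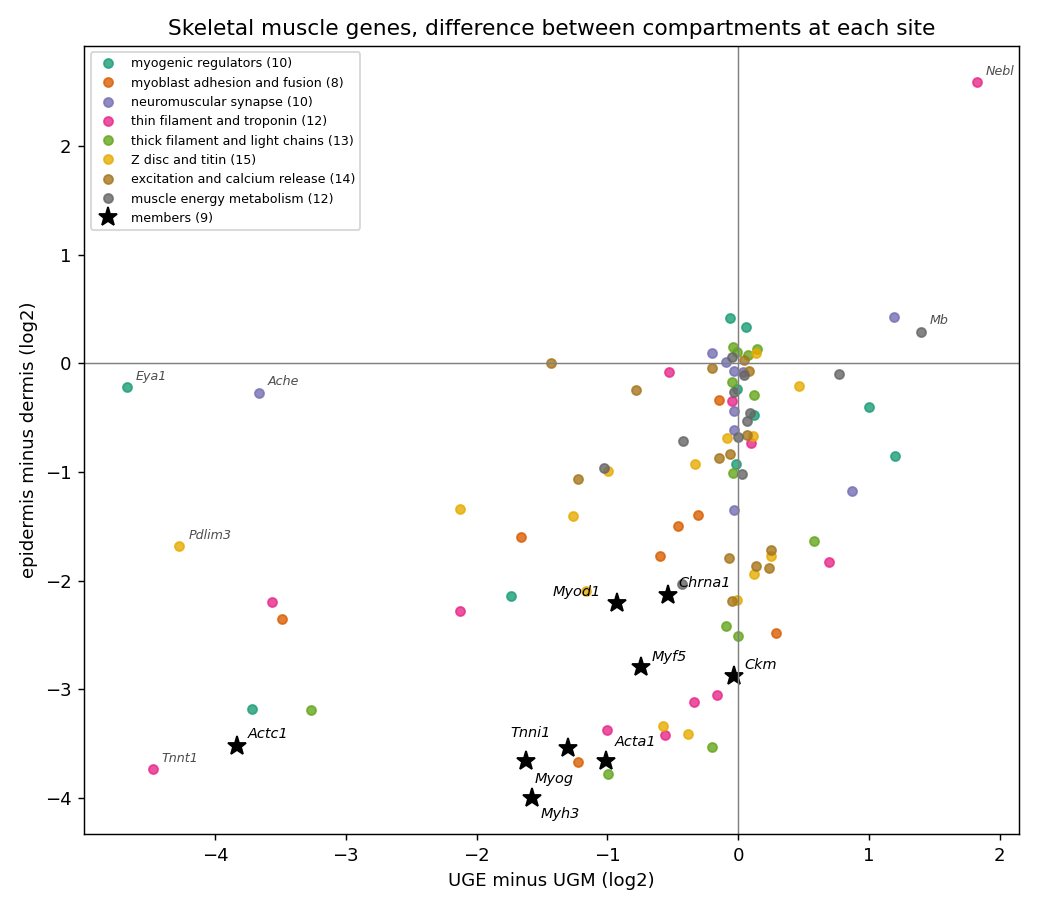
Difference between UGE and UGM (x axis, log2) against the difference between epidermis and dermis (y axis, log2) for the 9 members (stars) and 94 other muscle genes coloured by list. All 9 members lie below 0 on the y axis and Actc1 lies furthest left among them, while Tnnt1, Eya1 and Pdlim3 lie further left still.

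In the urogenital sinus the called genes differed from those of the skin in part. Of the 94 genes 13 were called higher in both mesenchymal tissues than in their epithelia, which is 13 of 17 for UGM and 13 of 42 for dermis. The same overlap over all genes was not counted, so it is not shown to be particular to muscle genes. Tnnt1 gave -4.48 ± 0.45 (SE) for UGE against UGM, Tpm2, a tropomyosin that smooth muscle also uses, -3.57 ± 0.37, Mef2c -3.72 ± 0.19, Ncam1 -3.49 ± 0.31 and Myl1 -3.27 ± 0.16. Eya1, a transcriptional cofactor used in many organs, gave -4.67 ± 0.12, Pdlim3 -4.27 ± 0.45 and Ache, the esterase that ends acetylcholine signalling, -3.66 ± 0.17. Six4 at 1.20 ± 0.19, Eya2 at 1.0 ± 0.19, Nebl at 1.82 ± 0.44, Lrp4 at 1.19 ± 0.22 and the oxygen carrier Mb at 1.4 ± 0.13 were called higher in UGE.

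Against dermis, Ttn differed by -4.61 ± 0.31 (SE) in UGM, Tnnc2 by -4.30 ± 0.27 and Myh8 by -4.03 ± 0.26, in the same direction as the 9 members. The 6 genes called higher in UGM than in dermis were Eya1 at 5.01 ± 0.14, Pdlim3 at 3.67 ± 0.41, Ache at 3.01 ± 0.16, Six4 at 2.66 ± 0.20, Ncam1 at 1.44 ± 0.29 and Cacnb1 at 1.39 ± 0.15. In UGE against epidermis, Six4 at 4.70 ± 0.19, Eya2 at 1.66 ± 0.17 and Chrnb1 at 1.04 ± 0.16 were higher, while Nebl at -3.59 ± 0.47, Cryab at -3.32 ± 0.34 and Tnnt2 at -2.90 ± 0.24 were among the 14 that were lower. The interaction was called positive for 32 of the 94 and negative for 4, or 34% and 4.26%, against 7.53% and 5.41% of all genes. The share called negative was thus under that of all genes. The 4 negative were Eya1 at -4.46 ± 0.19, Ache at -3.39 ± 0.22, Pdlim3 at -2.59 ± 0.57 and Cacnb1 at -1.43 ± 0.21.

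Markers of other cell types moved with these tissues and are given beside the members as sums of linear intensity over a list. The 12 smooth muscle genes summed to 2223 to 2854 in epidermis, 2501 to 4566 in UGE, 7236 to 9740 in dermis and 27540 to 30380 in UGM, and 9 of 12 were called lower in UGE than in UGM. The 11 mesenchyme genes summed to 3715 to 18050 in UGE, 23300 to 43020 in epidermis, 82270 to 92420 in UGM and 100500 to 128900 in dermis, and 11 of 11 were called lower in each epithelium than in its mesenchyme. The 12 epithelium genes summed to 28280 to 55490 in dermis and 1931 to 5530 in UGM. In epidermis they summed to 74530 to 92790 and in UGE to 89030 to 93700, so the summed signal was not low in dermis. Within the list 7 genes were called higher in dermis than in UGM and 3, Krt8, Krt18 and Cldn7, were called lower. The 10 neuron genes summed to 31190 to 39980 in UGM and to no more than 2738 elsewhere, and the 8 endothelium genes to 3792 to 5350 in dermis and 2264 to 3025 in UGM, above both epithelia. The cardiac list lay at medians of 4.73 to 5.39 log2 units in all 19 samples, with Myh6 at 4.06 to 4.45 and Nppa at 4.24 to 4.64. Myl7 of this list was higher in epidermis, at 5.68 to 6.68, and was called lower in UGE than there, by -1.05 ± 0.175 (SE, limma adjusted p = 9.35e-05). Tbx20 was called lower in UGE than in UGM, by -4.43 ± 0.09 (SE) in limma. No marker was listed at 0, and the part of these cell types in the differences of the 9 members was not tested.

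Within dermis the members varied by unequal amounts between samples. The range over the 4 samples was 0.24 log2 units for Myod1, 0.45 for Chrna1, 0.52 for Myog, and 0.54 for Myf5 and Actc1 alike. It was 0.89 for Tnni1, 1.28 for Myh3, 1.61 for Acta1 and 3.29 for Ckm. Dermis replicate 4 was highest for Ckm, Acta1, Myh3, Tnni1 and Actc1, all of them genes of contraction or its fuel. Dermis replicate 2 was highest for Myog, Myod1, Myf5 and Chrna1, and replicate 3 was lowest for 7 of the 9, Myf5 and Chrna1 being lowest in replicate 4.

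The wider lists shared this pattern as a description. Of the 42 genes called higher in dermis than in epidermis, 31 were highest in replicate 4 and 32 lowest in replicate 3, including 9 of 9 in Z disc and titin for both. Of the 7 fusion genes called, 4 were highest in replicate 2 and 1, Itgb1bp2, in replicate 4. Over all 1927 genes called higher in dermis, 975 were highest in replicate 2, 387 were highest in replicate 4 and 373 lowest in replicate 3, so that the 4 members and 4 fusion genes highest in replicate 2 are near the share of all genes. The medians of the mesenchyme list were 12.15, 12.60, 12.78 and 12.55 in replicates 1 to 4 and those of the epithelium list 11.31, 9.94, 10.88 and 10.72, neither of which peaked in replicate 4. The smooth muscle list, with medians of 7.48, 7.39, 7.10 and 7.55, was highest in replicate 4 and lowest in replicate 3, and the endothelium list, with 9.02, 9.31, 9.18 and 9.47, was highest in replicate 4. The part of these cell types in the spread of the members was not tested.

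**Figure D4:**
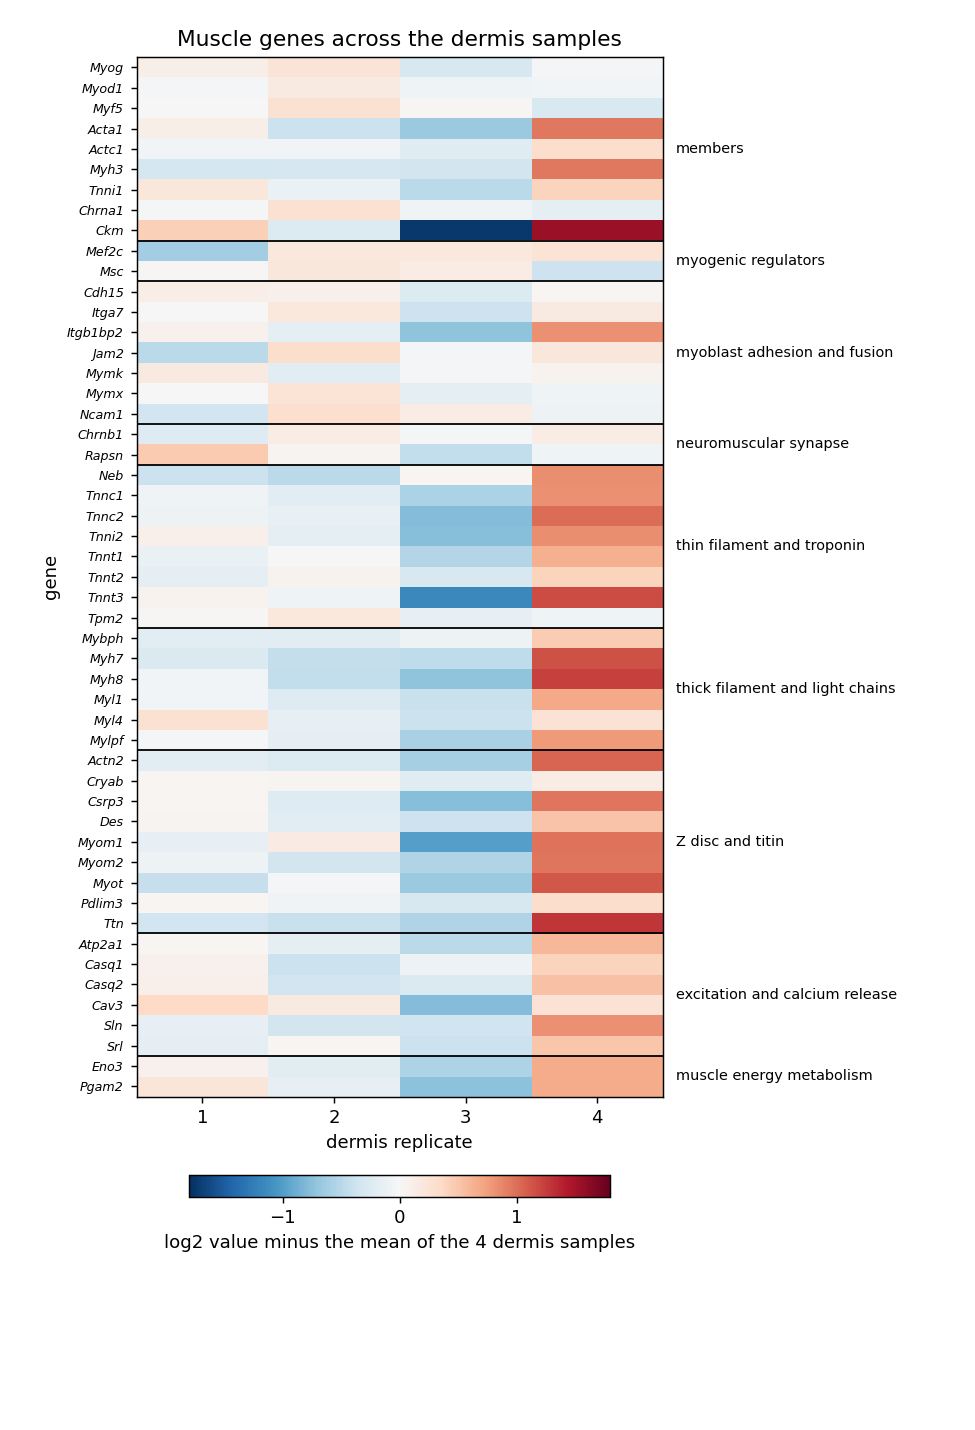
Each row is a gene and each column a dermis sample; colour is the log2 value minus the gene's mean over the 4 dermis samples. Genes of thin and thick filaments and of the Z disc are mostly high in replicate 4 and low in replicate 3, Ckm spans 3.29 log2 units, and Myog, Myod1 and Myf5 span 0.24 to 0.54.

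Among the UGM samples replicate 5 was highest for 7 of the 9 members, replicate 2 for Myf5 and replicate 4 for Ckm. Replicate 5 was also highest for 59 of the 94 other muscle genes, and for 10 of the 17 that were called higher in UGM than in UGE. The share of all genes highest in UGM replicate 5 was not counted, so these counts are not shown to be particular to muscle genes. Myh3 in UGM replicate 5 lay 1.62 log2 units above the mean of the 5 UGM samples, Actc1 1.33 and Tnni1 1.06. The smooth muscle list had medians of 10.17, 10.34, 10.21, 9.98 and 10.16 in replicates 1 to 5. Its genes were mixed, with Actg2, Cnn1, Smtn, Hspb6 and Ckb highest in replicate 5 and the remaining genes highest in other replicates. The part of smooth muscle in the spread of the members was not tested. Myog, Myod1, Myf5 and Myh3 were also raised in replicate 2, by 0.47, 0.55, 0.79 and 0.42 above the mean. Actc1 and Tnni1 lay 0.15 and 0.10 above it there, and Acta1, Chrna1 and Ckm lay below it. The epithelium list was highest in replicate 2.

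**Figure D5:**
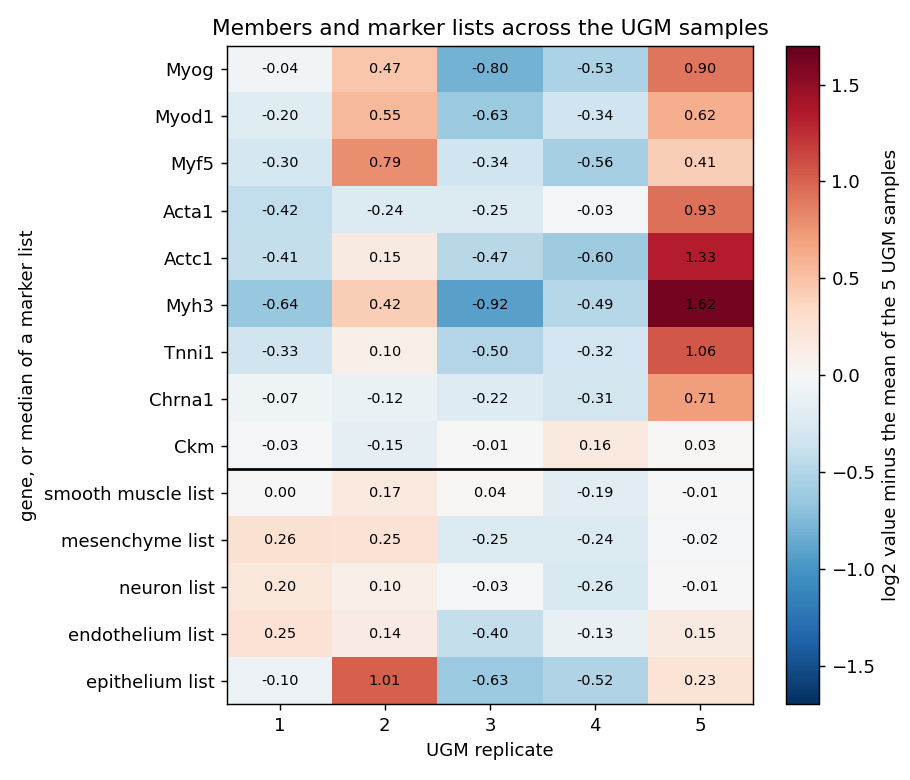
Each cell gives the log2 value of a gene, or the median of a marker list, minus its mean over the 5 UGM samples, by replicate (columns). Replicate 5 lies above the mean for all 9 members, from 0.03 for Ckm to 1.62 for Myh3, while the smooth muscle list lies at -0.01 there.

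In UGE, replicates 2 and 3 held the highest value for 8 of the 9 members, Myf5 being highest in replicate 1. The same 2 samples had mesenchyme list medians of 8.68 and 8.88, against 5.73 to 7.61 in the other 4, and smooth muscle medians of 7.49 and 7.43, against 6.27 to 6.46. In epidermis, replicate 1 was highest for 7 members, with a mesenchyme median of 10.29 against 8.63 to 9.92, while Actc1 and Myh3 were highest in replicate 3. The part of mesenchymal RNA in these values was not tested, and the share of all genes highest in each of these samples was not counted.

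Across the 19 samples the members followed one another, with Pearson r between pairs from 0.742, for Actc1 and Ckm, to 0.982 and a median of 0.931. These points share the 4 tissues, so r holds the differences between tissues along with those between samples. Of 17351 other genes, the 5 most like Myog were Mymx (r = 0.985), Rtl3 (0.981), Fcgr3 (0.98), Rac2 (0.975) and Meox2 (0.973). Those most like Acta1 were Tnnc2 (0.988), Ttn (0.981), Myl4 (0.976), Actn2 (0.975) and Gata1 (0.973), of which 4 belong to the muscle lists. Those most like Actc1 were Pf4 (0.982), Ctsk (0.98), Lgals9 (0.978), Fbln2 (0.974) and Gas7 (0.973), with no gene of the muscle lists among them.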

How the data were processed

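Gene expression was measured in 19 samples on Affymetrix arrays after a labelling with amplification in 2 cycles. The authors deposited 1 linear intensity for each probe set and array, normalized so that arrays can be compared. Their methods name GCOS 1.4, MAS5 and PLIER, but the algorithm behind this table is not stated in the sources read here. Detection calls were not used, so that no level is known to be above background. Intensities were log2-transformed as they stood. The table held 45101 probe sets. Without its 64 controls, the 41549 that exceeded 20 in any sample were tested, and p was adjusted over all of them. Of the probe sets 34945 had 1 symbol, 932 several and 9160 none. Each gene was represented by the tested probe set of highest mean log2 value.

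The tests used lmFit and eBayes of limma 3.58.1 under R 4.3.3 and were 2-sided. UGE against UGM and epidermis against dermis were fitted on their own samples and the other comparisons on all 19. The labels call the samples biological replicates, and p-values measure the spread between these pools. The scripts were tested on simulated data. The 9 members and the lists were chosen with earlier results of these data known, so that no count over a list is independent support. The lists held 101 symbols, of which 94 were tested, and some genes are not reported here. Genes named are the members, up to 3 called genes per list and comparison with the largest change, called genes against most of their list, and the 5 genes most correlated with Myog, Acta1 and Actc1. The main tests used no pairing of samples, and replicate numbers entered only in the replicate block among the alternatives. Epidermis and dermis of the same number deviated with r of 0.343, 0.108, 0.264 and 0.168. Epidermis replicate 2 deviated more with dermis replicate 3 (r = 0.299), so a pairing of the skin samples by number comes from the data and is uncertain. Promoters were taken from RefSeq on GRCm38.p6. Alternatives were the methods' t-test, limma's treat against 2-fold, a trended robust eBayes, an adjusted p under 0.05, quantile normalization, 50 added before log2, no filter or a median over 50, other probe sets, other samples in the fit, a replicate block and samples left out.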

Additional observations from a re-analysis of the deposited data

Results flagged for a closer look

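Dermis replicate 4 lay at 12.24 for Myh3, with the next of the 4 samples at 11, a gap that takes up nearly the whole range of the group. UGE replicate 3 lay at 5.75 for Chrna1, next to 5.40, and UGM replicate 5 at 6.64 for Chrna1, next to 5.86. These are 3 of 36 groups of member and tissue in which an outlying sample was looked for, and chance marks about 1 in 20.

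The compartments differed by unequal amounts at the 2 sites for 8 members, by limma's interaction term. Its value was 2.04 for Myog, 1.28 for Myod1, 2.05 for Myf5, 2.64 for Acta1, 2.43 for Myh3, 2.24 for Tnni1, 1.59 for Chrna1 and 2.85 for Ckm. In each the epithelium lay further below the mesenchyme in the skin than in the urogenital sinus.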

How the results depend on the processing

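In epidermis against dermis and UGM against dermis each member tested kept its direction and its call under the alternatives run, except Ckm in skin under the methods' t-test, treat and 50 added before log2, and Myod1 in UGM against dermis under treat (adjusted p = 0.0336). Ckm kept its call in both where the probe set of highest variance or the mean of its probe sets was used, but its other probe set alone gave -0.01 and -0.06 (limma adjusted p = 0.97 and 0.689), not called in either. Myf5 was not tested under the filter of a median over 50. For UGE against UGM the 5 members called became 3 by the methods' t-test, 1 by treat, 1 with 50 added before log2, 2 with a replicate block, 2 without UGM replicates 2 and 5 (chosen after seeing the data), and 3 to 6 with single samples left out. For UGE against epidermis 5 became 2 by treat and 3 with 50 added, and ran from 4 to 5 with single samples left out. For the interaction 8 became 0 by treat, which found 7 of 9 at an unadjusted p under 0.05, and ran from 6 to 8 with single samples left out.

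Of the 94 other genes, 22 called in UGE against UGM became 10 by treat and 12 with 50 added, 43 in epidermis against dermis became 19 by treat and 28 with a median over 50, and 45 in UGM against dermis became 25 with that filter. The 17 in UGE against epidermis became 5 by treat and 8 with 50 added, and the 36 of the interaction 14 by treat and 20 with a median over 50, where 58 genes were tested. With single samples left out these counts ran from 19 to 23, 42 to 47, 41 to 48, 13 to 17 and 32 to 39.

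Signs turned only where nothing was called: the Actc1 interaction was 0.336 with 50 added, 0.018 without UGM replicate 5 (range over single samples left out -0.563 to 0.018) and 0.18 without UGM replicates 2 and 5, and Ckm in UGE against UGM was 0.037 without UGE replicate 1 and 0.006 without UGM replicate 4 (range -0.109 to 0.037). Acta1 in UGE against UGM gave -0.98 with quantile normalization and was not called.

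The replicate block left Actc1 and Tnni1 called in UGE against UGM, with Myog at an adjusted p of 0.0122, Acta1 at 0.0186 and Myh3 at 0.0225 in limma, and changed no call of a member in the skin or the interaction. UGE and UGM samples of the same number deviated with r of 0.648, 0.006, -0.122, 0.138 and -0.406. Only UGE replicate 1 deviated most with the UGM sample of its own number. These values cannot show whether samples of the same number shared embryos. Low signal limits Myf5 outside dermis and Myh3 and Myog in UGE, since a difference from values near the lower quartile of the arrays may be understated. Ckm outside dermis, at 5.41 to 6.28, lay at the level of its other probe set, 5.75 to 6.32. Chrna1 in UGE and epidermis and Myod1 in UGE lay under the median of every array, 6.25 to 6.35. Whether low signal also narrows the differences of these genes was not tested.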

Other observations

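Values of 5 further muscle genes, named after their values were seen, follow. Myf6, the member of the MyoD family active in fibres, lay at 4.91 to 5.70 in dermis and 4.17 to 4.78 elsewhere, with a skin difference of -0.92 ± 0.17 (SE, limma adjusted p = 0.00215) that missed the fold limit. Pax7, a marker of muscle progenitors, lay at 5.26 to 5.65 in dermis and 4.44 to 5.08 elsewhere, with -0.48 ± 0.11 (limma adjusted p = 0.00812). Pax3, which acts in migrating muscle progenitors and in neural crest, was lower in UGE than in epidermis by -1.41 ± 0.12 and in UGM than in dermis by -1.14 ± 0.13 (SE), both called by limma, and overlapped between epidermis and dermis. Chrng, the fetal receptor subunit, gave -0.62 ± 0.16 in the skin (limma adjusted p = 0.0116) and Chrnd -0.07 ± 0.12 (0.717), while Chrna1 gave -2.13.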
